A study of Proteus anguinus with 14 samples.

Results

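Voltage-gated and transient receptor potential (TRP) ion channels were examined across the organs of the olm (Proteus anguinus), a blind, permanently aquatic cave salamander. The genes were taken by symbol: every assembled gene whose symbol begins as those of voltage-gated or related potassium (KCN), sodium (SCN), calcium (CACN), pacemaker (HCN) and chloride (CLCN) channels, of TRP channels of the A, C, M and V families, or of pannexins (PANX). Of the 18924 genes in the expression table, 111 carried such a symbol, standing for 83 distinct symbols. For each symbol the assembled gene with the highest mean level was kept, and 65 of the 83 reached the minimum of 1 TPM (the share of a sample's reads that a gene holds after division by transcript length, on a scale that sums to 1000000) in at least 2 samples. The gene with the lowest second-highest sample inside this limit was TRPV3, at a deposited TPM of 1.19, and the nearest outside it was KCNQ1, at 0.890.

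RNA was measured in 14 samples of 6 organs from 3 olms named p4, p5 and p6: brain, heart and skin from p4 and p6, gut from p4 and p5, and liver and lung from all 3. The animals were of wild origin, had been flushed out of caves, were kept singly in darkness, and had served as uninfected controls of an infection trial. No genotype, drug or time course was compared, and neither age nor sex is given in the sources used here. Organs are separate samples, but animals are shared between organs, and each organ rests on 2 or 3 animals. In the tests of an organ against all other samples, the error also holds the differences among those other organs. In the direct contrasts, the error is the spread within organs, pooled over all of them. The expression values are TPM divided by a per-sample scaling factor (normalized TPM), which are relative to transcript length, so that levels can be set beside each other between genes as well as between samples.

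Voltage-gated channels open when the membrane voltage changes and carry the ions that make, shape and end electrical signals. Sodium (Nav) channels start the action potential of neurons and muscle fibres, potassium (Kv) channels end it, and calcium (Cav) channels turn it into secretion or contraction. Inward rectifier (Kir) and two-pore (K2P) potassium channels set the resting voltage in excitable and other cells, while TRP channels respond to lipids, temperature, oxidation and cell calcium. Many of these channels are a pore-forming subunit together with accessory subunits that carry no ions of their own.

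The 65 genes comprised 16 Kv pore or silent subunits, 2 Kv accessory subunits, 6 Kir, 5 K2P, 3 members of the calcium- and sodium-activated potassium channel group (KCa), 5 Nav alpha, 2 Nav beta, 3 Cav alpha1 and 9 Cav accessory subunits, 3 CLC transporters, 9 TRP channels, 1 pannexin and 1 further gene. Symbols were assigned by the authors from orthology and not from a genome, so a symbol can stand for a close relative of the gene it names. For 3 pairs (CACNB1 and CACNB3, KCNH2 and KCNH6, KCNK15 and KCNK3) both genes came from the same component of the transcript assembly, and reads could be split between them. Of 100 textbook channels listed for these tissues, 40 were among the 65 and 11 had a row below the minimum, and the others matched no symbol in the table used here. Among those below the minimum was KCNQ1, which carries the slow potassium current of the mammalian heart. In no sample did KCNQ1 exceed 0.834 normalized TPM.

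The organ was taken from the sample titles, since the tissue field of the labels exchanges gut with heart and liver with lung, and marker genes followed the titles. Neuronal SYT1 and ELAVL4 summed to 557 and 402 in brain and to 4.44 to 30.1 elsewhere, and heart NKX2-5, TNNT2 and MYL7 to 17267 and 10008 in heart against 33.5 or less elsewhere. The skeletal muscle markers MYH1, TNNI2 and CKM, 3 of 7 listed, were in several organs: they summed to 62956 and 68154 in the skin of p4 and p6, to 2166 and 22525 in heart, to 1536 and 18062 in brain, and to 669 or less in gut, liver and lung. The skin samples thus carried muscle RNA, and so did the p6 brain and p6 heart more than those of p4. Liver markers (ALB, APOB, ITIH2 and KNG1) summed to 20275 and 15112 in the lung of p5 and p6 against 377 in that of p4, and to 93941 to 193952 in liver. In such bulk samples, fewer cells of a type and less RNA per cell cannot be told apart.

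**Figure D1:**
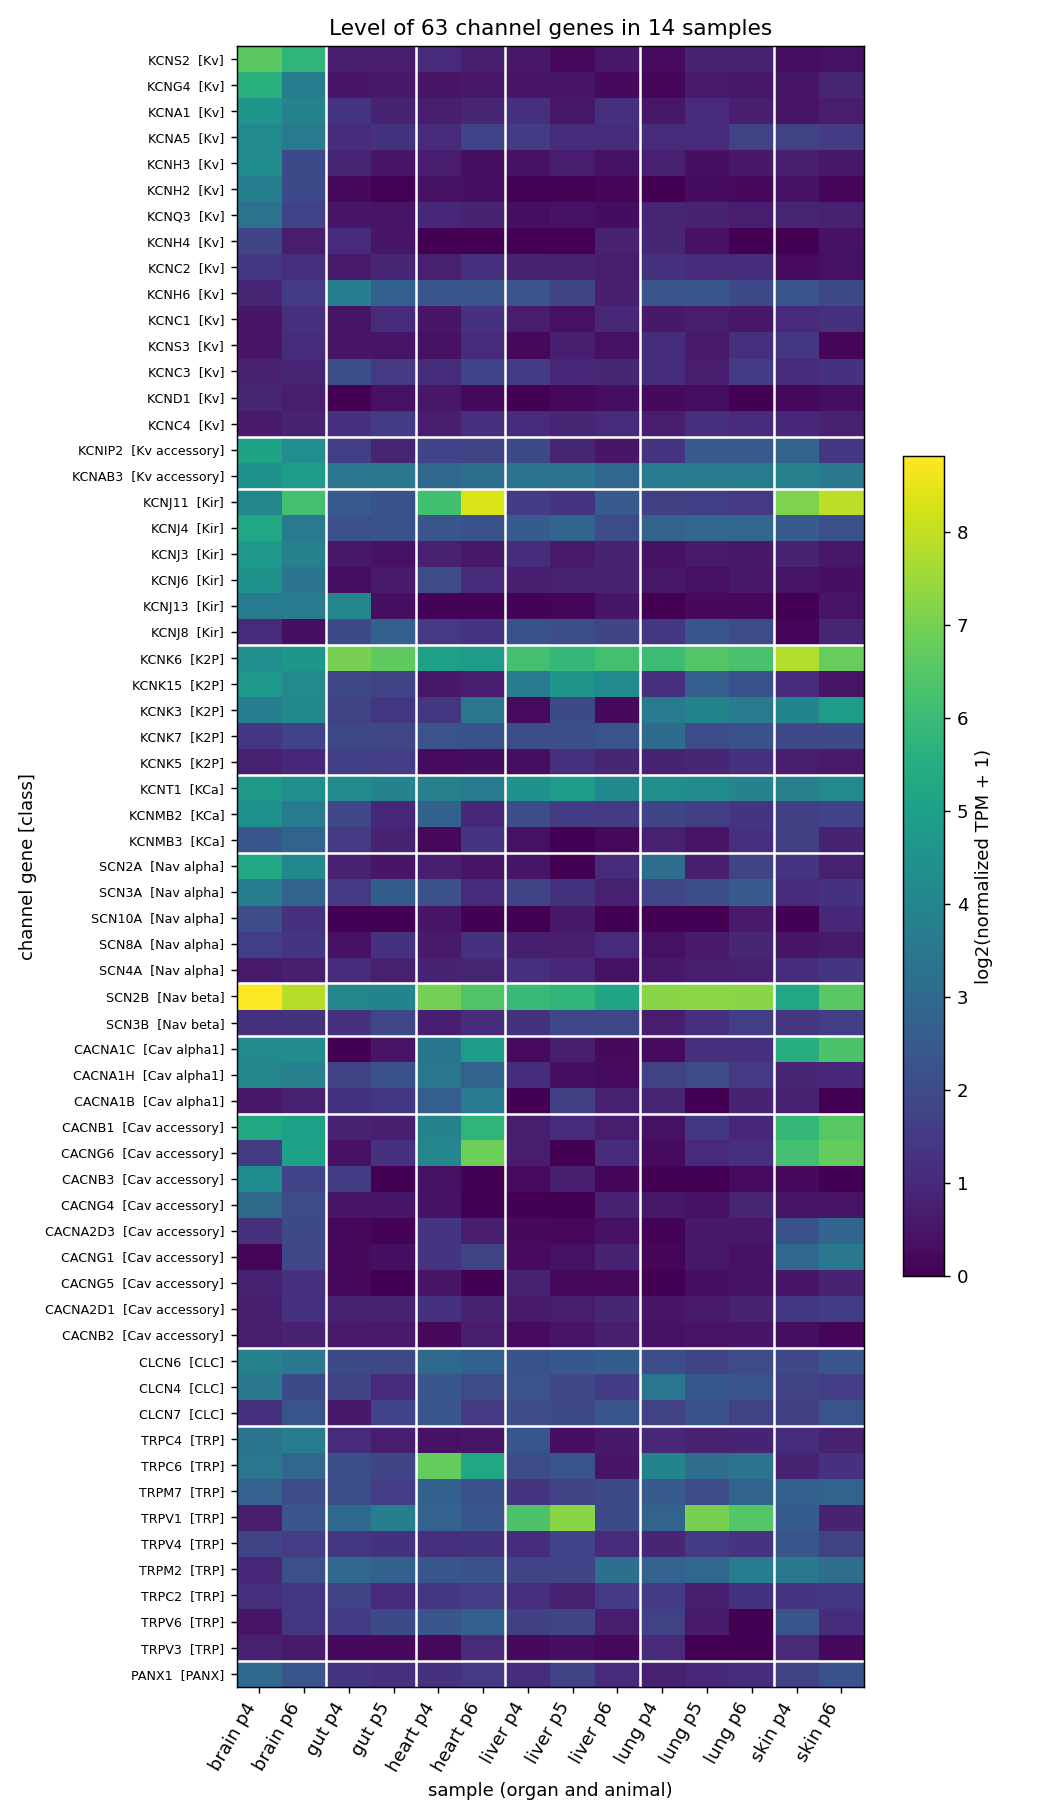
Level of 63 of the channel genes (rows, grouped by class in brackets and ordered by mean level in brain) in the 14 samples (columns, organ and animal), as log2(normalized TPM + 1) by colour. The upper Kv rows are bright in both brain samples alone, while CACNA1C, CACNB1, CACNG6 and KCNJ11 are bright in skin, heart and at least 1 brain sample, and KCNK6 and SCN2B are above 14 normalized TPM in all 14 samples.

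The 65 genes together summed to 1185 and 801 normalized TPM in the brain of p4 and p6. The sums were 717 and 867 in skin, 497 and 792 in heart, 373 to 510 in lung, 250 and 295 in gut and 223 to 398 in liver. Brain was the organ with the highest mean for 35 genes, skin for 14, gut for 6, heart for 5, liver for 3 and lung for 2. For 26 genes (40.0% of the 65, and 13.1% of all tested genes) both brain samples lay above all other samples. For 5 both skin samples did (7.69% and 4.61%), for 4 both gut samples (6.15% and 4.61%) and for 3 both heart samples (4.62% and 3.34%). For none did the samples of liver or lung. The brain share is in part set by the filter, which 14 of the 65 genes passed only with the help of the brain samples. The filter was applied to deposited TPM, before scaling, and the scaling factor was highest in both brain samples. A deposited TPM of 1 is therefore a lower normalized level in brain than in any other sample, which tilts the filter toward brain genes. CACNB2 and KCND1, which are among these 14, passed it without reaching 1 normalized TPM in any sample. A group of 19 genes never reached 5 normalized TPM in any sample, among them the Kv3 channels KCNC1 to KCNC4, SCN4A, SCN8A, CACNA2D1 and TRPV4, and in the comparisons below only 1 of these, SCN10A, was called.

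Following the study's design, the samples of 1 organ were set against all others, and a gene was called at an adjusted p under 0.05 and an absolute log2 fold change above 1 (limma on log2(normalized TPM + 1), Benjamini-Hochberg over all 16317 genes tested). In brain, 24 of the 65 genes were higher, where 11.2% of all tested genes were, and 1 was lower, where 3.36% of all were. The median log2 fold change of the 65 was 0.79 in brain, and that of all tested genes was 0.04. Of the 65 genes, 14 reached the minimum level only with the help of the brain samples, and 10 of the 24 are among these 14, so the share of called genes is in part set by the filter. With all 83 symbols and no filter, 25 were higher in brain, where 9.47% of all genes were. KCNJ13 was the 1 gene of the 24 in which a sample outside the brain lay above a brain sample. The calls rest on the same values, so this order is a description and no further support.

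Among all tested genes, 11.2% were higher in brain. By class, the brain calls were 7 of 16 Kv subunits, both Kv accessory subunits, 4 of 6 Kir, 2 of 3 KCa, 3 of 5 Nav alpha, 1 of 3 Cav alpha1, 2 of 9 Cav accessory, 1 of 3 CLC, 1 of 9 TRP genes and the pannexin. Of these genes, 10 passed the filter only with the help of the brain samples. They were KCNG4, KCNH2, KCNH3, KCNQ3 and KCNS2 (Kv), KCNJ3 and KCNJ13 (Kir), CACNB3 and CACNG4 (Cav accessory), and SCN10A (Nav alpha). The shares by class are thus in part set by the filter. For TRP genes the share was near that of all tested genes, and in classes of 3 or fewer genes a share says little. No Nav beta gene was called, and the single lower gene was a K2P channel. In 20 of the 24 genes p4 had the higher value of both brain samples, with a median ratio of p4 to p6 of 1.82, where the median over all genes called higher in brain was 1.75. The neuron markers were at 557 in the p4 and 402 in the p6 brain, and the glia markers (SLC1A3, MBP and OLIG2, the last near 0 in all samples) at 1261 and 764, and the part of this difference in the calls was not tested. Without the p4 brain, 15 genes were called, where 3.70% of all tested genes were, and without the p6 brain 21, where 10.5% of all were. All 15 were among the 24, and the 9 lost were CACNA1H, CACNB3, CLCN6, KCNJ13, KCNJ4, KCNMB3, PANX1, SCN10A and SCN3A. Of the 21, 20 were among the 24, and those lost were CACNA1H, KCNAB3, KCNJ13 and KCNMB3.

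Summed over the class, Kv genes were at 235 and 109 normalized TPM in the brain of p4 and p6 and at 11.3 to 28.8 in the other 12 samples. This difference is in part set by the filter. KCND1, KCNG4, KCNH2, KCNH3, KCNH4, KCNQ3 and KCNS2 passed it only with the help of the brain samples. KCNS2, a silent subunit that forms no channel alone and modifies Kv2 channels, stood at 95.4 and 52.8 in brain and between 0.164 and 1.12 in all other samples. Its difference of 5.57 ± 0.26 on the log2 scale (± standard error here and below, limma adjusted p 1.44e-09) exceeded that of every other channel gene in brain. KCNG4, a silent subunit of the same kind, was at 49.0 and 12.1 in brain and at 0.901 or less elsewhere, with a log2 fold change of 4.17 ± 0.33 (limma, adjusted p 3.02e-07). The brain samples of these silent subunits thus lay far above the other samples, although they differed between both animals, for KCNG4 by a ratio of 4.04.

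Of the channels that open at low voltage in axons, KCNA1 was at 23.8 and 14.2 in brain and at 0.384 to 1.53 elsewhere (log2 fold change 3.41 ± 0.27, limma adjusted p 2.57e-07). KCNA5, which in mammals carries a current of the cardiac atria, was at 17.2 and 11.8 in brain and at 1.12 and 2.44 in heart, and it was higher in brain than in the other samples by 2.57 ± 0.26 on the log2 scale (limma, adjusted p 4.27e-06). KCNH2, known for the rapid repolarizing current of the mammalian heart, showed the same order: 12.8 and 2.95 in brain, 0.328 and 0.287 in heart, and 0.335 or less in all samples outside the brain. KCNA5 and KCNH2 thus had low levels in the olm heart samples, and for each of them brain and heart did not overlap. KCNH6, a relative that may share reads with KCNH2, had the opposite order. The p4 and p6 hearts held 4.10 and 3.96 normalized TPM of it, while their brains had only 0.899 and 1.89. Further assembled genes named KCNH6 were highest in the p4 heart, with 2.04, 2.36 and 2.54. In the p6 heart these genes had 0.764, 0.995 and 0. The KCNH2 values alone therefore do not settle how much RNA of such channels the heart holds.

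KCNH3, a relative of KCNH2 found in the mammalian forebrain, was at 18.7 and 2.84 in brain and at 0.881 or less elsewhere. A second assembled gene with the symbol KCNH3 had the same pattern, at 10.6 and 5.63 in brain and at 0.477 or less elsewhere. KCNQ3, a subunit of the M-type current that restrains repeated firing, was at 8.91 and 2.45 in brain and at 1.04 or less in the other organs. Both Kv accessory genes were higher in brain. KCNIP2, a calcium-binding partner of Kv4 channels, was at 33.4 and 18.9 in brain and at 0.450 to 5.97 elsewhere, and KCNAB3, a cytoplasmic beta subunit, at 21.8 and 28.5 in brain and at 6.43 to 13.5 elsewhere.

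**Figure D2:**
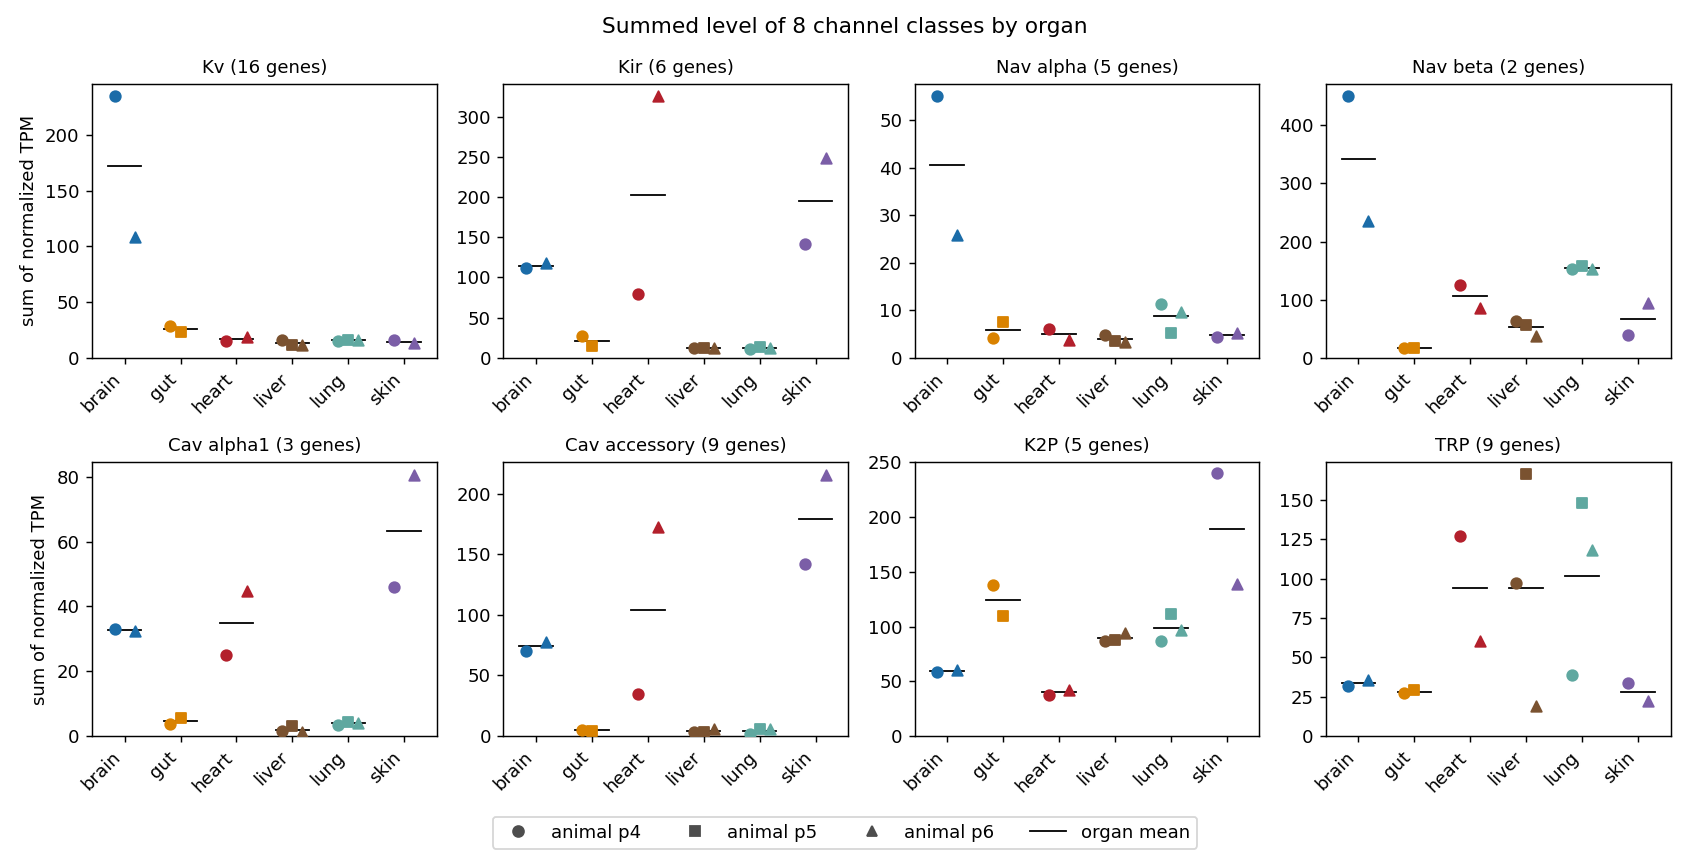
Sum of normalized TPM over the genes of 8 channel classes (panels, each on its own axis from 0) in each sample, by organ, with the symbol giving the animal and the line the organ mean. Kv and Nav alpha sums lie highest in brain, the Kv sum in part through the filter. The second assembled gene named SCN2A, at 41.5 and 8.42 in heart, is not part of the Nav alpha sum. Kir and both Cav sums are high in brain, heart and skin with a wide spread between both heart samples. K2P sums are highest in skin, and TRP sums spread from 18.7 to 167 within liver.

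Among the Kir channels, KCNJ3 and KCNJ6 encode subunits of G protein-gated channels, which in mammals slow the firing of neurons and the heartbeat, and both were higher in brain. KCNJ3 was at 24.7 and 13.5 in brain and at 0.348 to 1.21 elsewhere (log2 fold change 3.60 ± 0.23, limma adjusted p 3.62e-08). In heart KCNJ3 stood at 0.697 and 0.496. KCNJ6 was at 21.7 and 9.39 in brain, and the highest of the other samples was the heart of p4, at 3.14. KCNJ4, a strong inward rectifier, was at 37.4 and 11.6 in brain and at 3.12 to 6.58 elsewhere.

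KCNJ13, a channel of the choroid plexus and of other transporting epithelia in mammals, was at 11.4 and 12.1 in brain, and also at 14.9 in the gut of p4, while the gut of p5 was at 0.295. The other 10 samples were at 0.446 or less. Brain and gut therefore overlapped, the call in brain (log2 fold change 3.14 ± 0.74, limma adjusted p 0.00812) was lost without either brain sample, and the difference between both gut samples has no replicate. KCNJ11 and KCNJ8, the pores of channels closed by ATP, followed other organs and are described with the muscle-bearing and the epithelial samples.

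In the group of calcium- and sodium-activated channels, both beta subunits of the large-conductance channel were higher in brain. KCNMB2 was at 20.3 and 11.5 in brain and at 0.956 to 5.63 elsewhere (log2 fold change 2.36 ± 0.37, limma adjusted p 0.000402), and KCNMB3 was at 4.13 and 6.18 against 2.22 or less. The pore subunit KCNMA1 matched no symbol in the table used here. KCNT1, a potassium channel opened by sodium, lay between 11.3 and 27.9 in all 14 samples, with the p4 brain at 25.6 and the liver of p5 above both brain samples, and it was not called in brain (log2 fold change 0.42 ± 0.29, limma adjusted p 0.361).

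Sodium channels showed both a brain pattern and a broad one. SCN2A, the alpha subunit of early axons, was at 37.1 and 16.3 in brain, and outside the brain the highest sample was the lung of p4 at 7.83 (log2 fold change 3.68 ± 0.58, limma adjusted p 0.000385). A second assembled gene with the symbol SCN2A was at 41.5 and 8.42 in heart, at 1.04 and 3.07 in brain and at 3.40 or less elsewhere. When all assembled genes of a symbol were summed, SCN2A was no longer called in brain (log2 fold change 2.75, limma adjusted p 0.0577) or against heart (0.46, adjusted p 0.712). The symbol thus covers a gene read mainly in brain and another read mainly in heart, and which sodium channel of other vertebrates the second one corresponds to is not given by the symbol.

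SCN3A, an alpha subunit of developing neurons in mammals, was at 12.2 and 6.12 in brain, just above the gut of p5 at 5.04 and the lung of p6 at 4.80. SCN10A, known from sensory neurons and chosen for mention after its values were seen, was at 3.20 and 1.36 in brain and at 0.989 or less elsewhere, and was called in brain with a log2 fold change of 1.42 ± 0.28 (limma, adjusted p 0.00264). The axonal SCN8A never exceeded 2.08, its level in the p4 brain, and the skeletal muscle channel SCN4A never exceeded 1.56, its level in the p6 skin, and neither was called in any comparison. A second assembled gene named SCN4A was at 1.37 and 1.64 in skin and at 1.03 or less elsewhere.

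SCN2B, a beta subunit that anchors and tunes Nav channels, had the highest level of all 65 genes in brain, at 449 and 234. It was also at 152, 156 and 151 in the lung of p4, p5 and p6, at 125 and 85.1 in heart, at 38.1 and 92.3 in skin, at 34.8 to 61.3 in liver, and at 15.3 and 14.8 in gut. Both brain samples lay above all others, but SCN2B was not called in brain against all other samples (log2 fold change 2.35 ± 0.80, limma adjusted p 0.0592). Against single organs it was called: the brain was higher by 1.64 ± 0.43 than heart (limma, adjusted p 0.0228), by 2.43 ± 0.43 than skin (adjusted p 0.00226) and by 2.71 ± 0.37 than gut and lung (adjusted p 0.000184), on the log2 scale. The red blood cell markers HBE1 and ALAS2 summed to 1049730, 565722 and 749159 normalized TPM in the lung of p4, p5 and p6 and to 3977 to 124221 elsewhere, and their part in the lung level of SCN2B was not tested.

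Of the calcium channel pores, CACNA1H, a T-type channel that opens near the resting voltage, was at 15.5 and 13.3 in brain, at 10.2 and 6.02 in heart, and at 3.50 or less in the other samples. It was called in brain (log2 fold change 2.35 ± 0.64, limma adjusted p 0.0208) with a difference to heart of 0.79 ± 0.38 that was not called (adjusted p 0.183). CACNB3, an intracellular beta subunit of neuronal channels, was at 18.7 in the p4 and 2.43 in the p6 brain, and the nearest other sample was the gut of p4 at 1.94. CACNG4, which in mammals also serves as a partner of AMPA-type glutamate receptors, was at 7.35 and 3.13 in brain and at 0.871 or less elsewhere (log2 fold change 2.12 ± 0.27, limma adjusted p 5.7e-05). For CACNB3 the call was lost without the p4 brain, and for CACNG4 both brain samples were clear of the rest.

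The TRP, CLC and pannexin groups had 1 brain gene each. TRPC4, a receptor-operated cation channel, was at 9.40 and 12.3 in brain, and outside the brain the liver of p4 was highest, at 4.16. CLCN6, a chloride-proton exchanger of late endosomes, was at 13.8 and 10.5 in brain and at 2.50 to 7.34 elsewhere, and PANX1, a large-pore channel that releases ATP, was at 7.07 and 4.02 in brain and at 0.718 to 3.65 elsewhere. Neither CLCN4 nor CLCN7, exchangers of endosomes and lysosomes, was called.

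The study's brain samples were then set against the heart, the muscle-bearing skin, and the mean of gut and lung in 1 model with a mean for each organ. These 3 contrasts share the brain samples. Against heart, 24 channel genes were higher in brain (10.4% of all tested genes) and 2 lower (5.61%), against skin 25 were higher (11.2%) and 7 lower (8.33%), and against gut and lung 29 were higher (15% of all tested genes) and 5 lower (9.11%). Without the p4 brain the higher counts were 13, 15 and 27, where 4.07%, 4.73% and 7.19% of all genes were. With all samples, 21 of the 65 genes were higher in all 3 contrasts (7.13% of all tested genes were), among them all brain-called Kv and Kir genes named above, and none was lower in all 3. KCNK15 and SCN2B were the 2 genes of these 21 that were not called in brain against all other samples. Of the 65 genes, 25 were called in none of the contrasts, among them KCNT1, KCNK3, SCN8A and TRPV1. These counts are in part set by the filter, which 14 of the 65 genes passed only with the help of the brain samples. With all 83 symbols and no filter, 24 were higher in brain than in heart (8.20% of all genes). Against skin 25 were higher (9.03%), and against gut and lung 30 (12.3%).

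**Figure D3:**
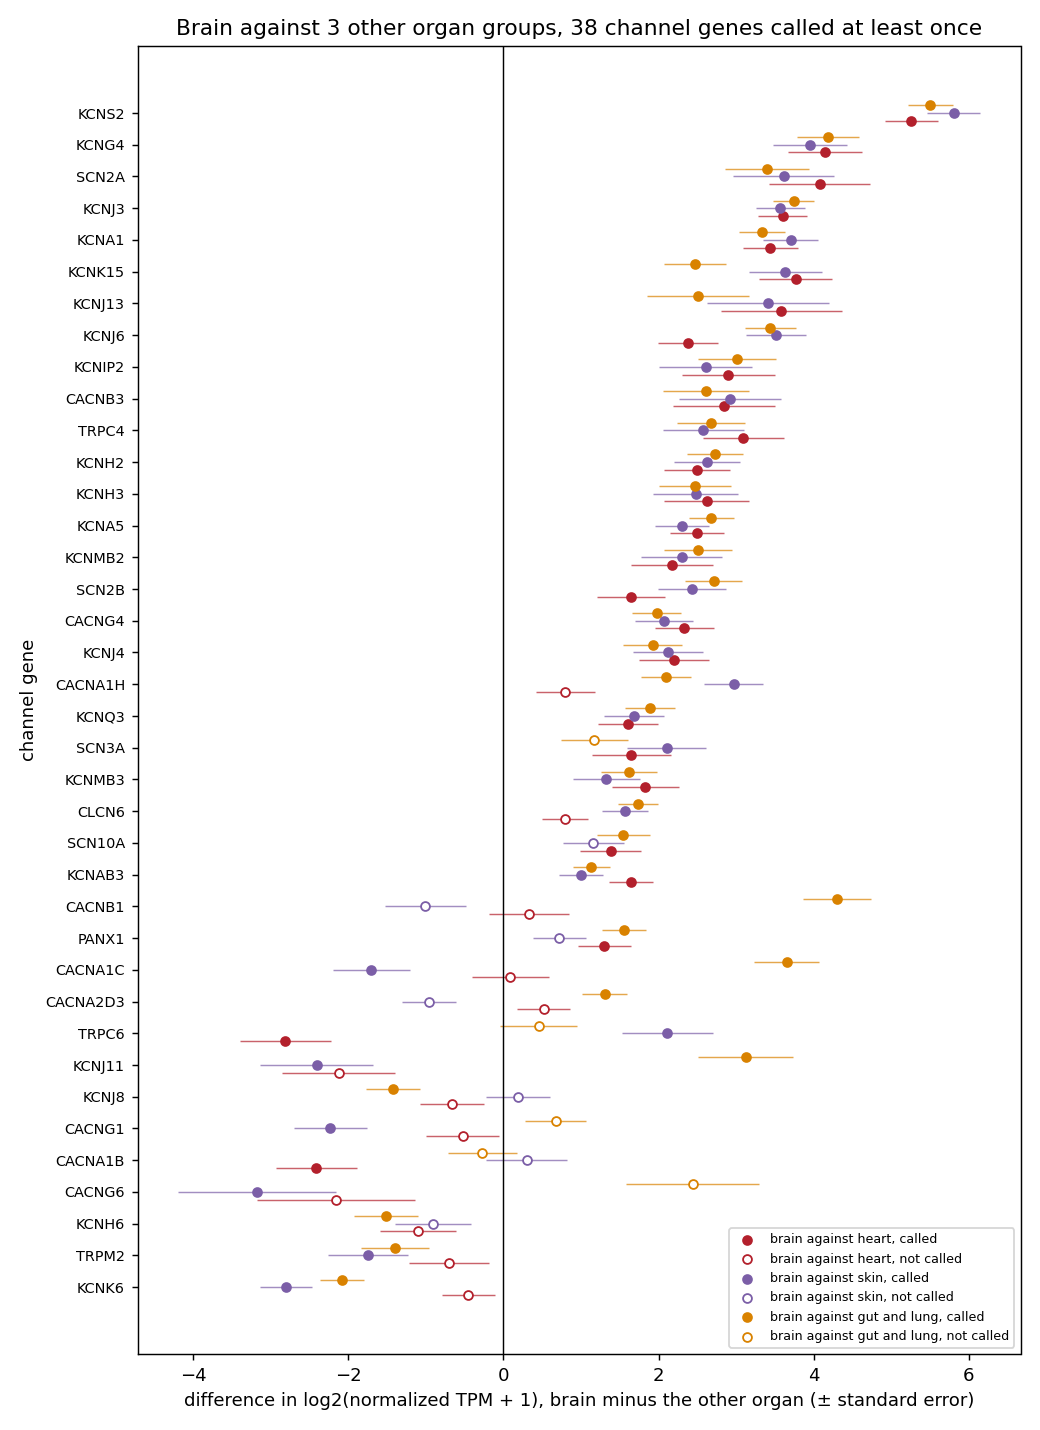
Difference in log2(normalized TPM + 1) between brain and heart, skin, or the mean of gut and lung (points, with standard errors as bars) for 38 channel genes called in at least 1 of these 3 contrasts, ordered by their mean difference. Filled points passed the threshold. KCNS2 lies between 5.26 and 5.81 in all 3 contrasts, while CACNA1C, KCNJ11 and TRPC6 have filled points on both sides of 0.

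CACNA1C, KCNJ11 and TRPC6 were higher in brain in 1 contrast and lower in another. CACNA1C, the pore of L-type calcium channels, measured 17.0 and 18.2 in brain. In skin it measured 44.4 and 79.6, in heart 9.64 and 27.7, and 1.35 or less in gut, liver and lung. Brain was higher than gut and lung by 3.65 ± 0.42 on the log2 scale (limma, adjusted p 5.27e-05) and lower than skin by a log2 fold change of -1.70 ± 0.50 (adjusted p 0.03). The CACNA1C call against skin was lost in 6 of 25 alternatives. Among these were deposited TPM without scaling, and leaving out either brain sample or the p6 skin. For TRPC6 the call of brain above skin was lost in 4 of 25. CACNB1, a beta subunit of the skeletal muscle channel in mammals, had a like order, at 39.0 and 31.5 in brain, 56.9 and 90.0 in skin, 14.2 and 53.2 in heart, and 1.69 or less in the other 8 samples. No row used here carried the symbol CACNA1S, the L-type pore of mammalian skeletal muscle. A second assembled gene named CACNA1C had another order, at 2.20 and 0.912 in heart, 0.667 and 0.678 in skin, and 0.935 or less elsewhere.

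KCNJ11, the pore of the ATP-closed potassium channel of muscle, neurons and insulin-secreting cells, had the widest range of these genes. In the skin of p4 and p6 it measured 136 and 243, in their heart 69.6 and 319, in their brain 15.6 and 70.9, and in gut, liver and lung 1.59 to 4.76. CACNG6, a gamma subunit of the kind that joins muscle calcium channels, measured 71.9 and 105 in the same skin samples, 15.1 and 115 in the hearts, 1.87 and 31.8 in the brains, and 1.38 or less elsewhere. In both genes the p6 sample lay above the p4 sample in brain, heart and skin alike. The skeletal muscle markers were likewise higher in p6 than in p4, at 18062 against 1536 in brain and 22525 against 2166 in heart. In skin the markers differed little, at 68154 against 62956. The part of the muscle RNA in these levels was not tested. Between the brains of p4 and p6, CACNA1C differed little, and CACNB1 was higher in p4. Without the p4 brain, KCNJ11 (log2 fold change -1.35, limma adjusted p 0.379) and CACNG6 (-1.42, adjusted p 0.477) were no longer called lower in brain than in skin.

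**Figure D4:**
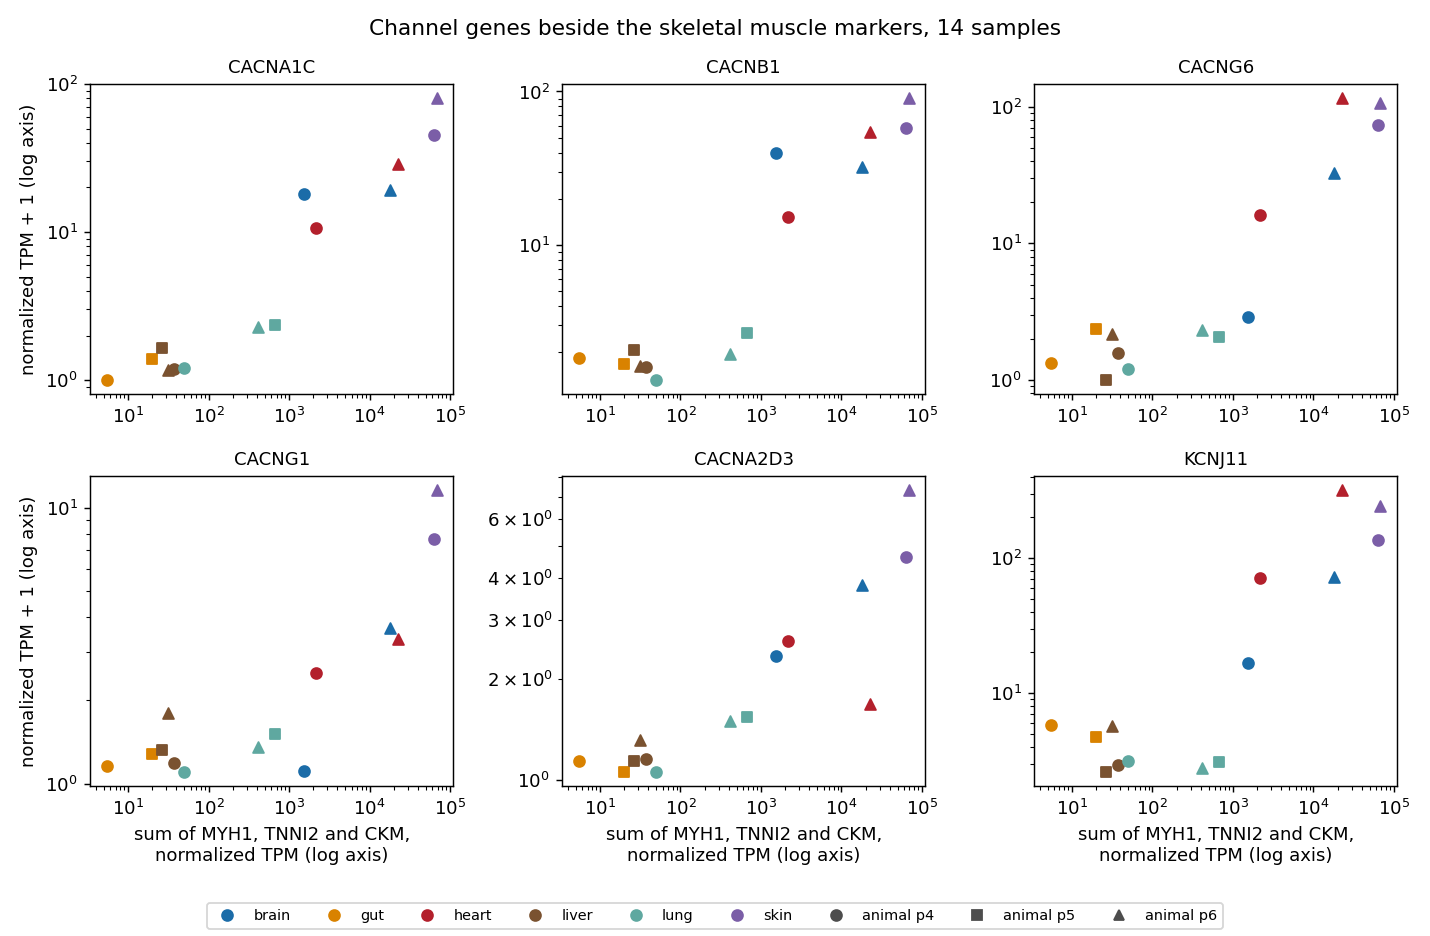
Normalized TPM (plus 1, log axis) of 6 channel genes against the sum of the skeletal muscle markers MYH1, TNNI2 and CKM (log axis) in the 14 samples, with colour for organ and symbol for animal. All 6 genes have both skin samples among their 3 highest values, and in CACNA1C and CACNB1 the p4 brain lies far above the lung samples of p5 and p6.

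In skin against all other samples, 2 channel genes were called higher, where 1.94% of all tested genes were, and none lower (2 at an unadjusted p under 0.05). CACNG1, a gamma subunit of the skeletal muscle calcium channel, was at 6.73 and 10.6 in skin and at 2.67 or less elsewhere (log2 fold change 2.55 ± 0.44, limma adjusted p 0.00426). CACNA2D3, an extracellular calcium channel subunit, was at 3.61 and 6.34 in skin and at 2.82 or less elsewhere (log2 fold change 1.91 ± 0.43, limma adjusted p 0.0254). It lost the call with the animal as a block (adjusted p 0.0534), and both genes lost it when either skin sample was left out. Without the p6 brain and p6 heart, 6 genes were called in skin, where 2.81% of all genes were: both of these, CACNA1C, CACNB1, CACNG6 and KCNJ11. The samples left out had the higher muscle markers of their organs. For CACNA1C, CACNB1, CACNG6 and KCNJ11 the p6 heart was also the highest sample outside the skin. These added calls thus follow in part from the choice of samples and are no further support.

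The comparison with all other samples pools 5 organs, so that a gene shared by several of them gains a wide error. With a separate mean for each organ, and each organ against the mean of the other 5, 9 channel genes were higher in skin, where 5.23% of all genes were, and 6 lower (2.77%). Among the additional ones were CACNA1C, CACNB1, CACNG6, KCNJ11, KCNK3 and KCNK6. CACNA1C was higher in skin by 3.95 ± 0.38 on the log2 scale (limma, adjusted p 5.83e-05) and KCNJ11 by 3.89 ± 0.56 (adjusted p 0.000856).

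In heart against all other samples, 2 channel genes were higher (0.723% of all tested genes) and none was lower (1 at an unadjusted p under 0.05). TRPC6, a cation channel opened by diacylglycerol and known from smooth muscle, heart muscle and kidney, was at 104 and 38.0 in heart. The lung followed with 14.7, 7.85 and 9.13, then the brain with 9.93 and 6.59, and gut, liver and skin were at 3.88 or less. Its log2 fold change in heart was 3.68 ± 0.76 (limma, adjusted p 0.0318), and adjusted p was 0.0609 with the animal of the sample title as a block. Without the p4 heart adjusted p was 0.886, and without the p6 heart 0.121, and the call was also lost without either gut sample or without the liver of p4 or of p5. MYOCD, a smooth muscle marker that heart muscle also expresses, was at 26.5 and 11.8 in heart and at 4.85 or less elsewhere, and the part of smooth muscle in the TRPC6 level was not tested.

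CACNA1B, the symbol of the N-type calcium channel of nerve endings, was the other heart gene, at 5.24 and 11.1 in heart, 0.503 and 0.770 in brain and 2.17 or less elsewhere (log2 fold change 2.35 ± 0.42, limma adjusted p 0.00978). A second assembled gene named CACNA1B was at 3.17 and 1.21 in brain and at 0 in the other 12 samples, and with the rows summed the heart call was lost (adjusted p 0.077), as it was without either heart sample. For CACNA1B, as for SCN2A, 2 assembled genes of 1 symbol therefore differed in the organ of their highest level. Heart was set against skin as the other muscle-bearing organ, and 3 channel genes were higher in heart (2.37% of all tested genes) and 3 lower (3.22%). TRPC6 was higher in heart by 4.93 ± 0.59, CACNA1B by 2.71 ± 0.53 and CACNA1H by 2.18 ± 0.38 on the log2 scale, and CACNA2D3 and KCNK6 were among the lower genes. With a separate mean for each organ, heart had 7 genes above the mean of the other organs (3.49% of all genes), CACNA1B, CACNA1C, CACNA1H, CACNB1, CACNG6, KCNJ11 and TRPC6, and 2 below it, KCNK15 and KCNK6.

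Among the K2P channels, KCNK6, a weak two-pore channel, measured 221 and 107 in skin, 128 and 101 in gut, 65.4 to 87.3 in lung, 57.3 to 71.9 in liver, 31.5 and 27.3 in heart, and 18.8 and 23.8 in brain. All 4 samples of skin and gut lay above all others, and both brain samples lay below all others. KCNK6 was the only channel gene called lower in brain (log2 fold change -1.79 ± 0.56, limma adjusted p 0.0391), and this call was lost in 10 of 26 alternatives, among them deposited TPM without scaling (-0.52, adjusted p 0.513), the animal of the title as a block (-1.75, adjusted p 0.0671), and leaving out either brain sample, the gut of p5, the liver of p4, the lung of p5 or of p6, or the skin of p6. Brain against skin gave -2.80 ± 0.34 (limma, adjusted p 0.000144), and brain against gut and lung gave -2.08 ± 0.29 (adjusted p 0.000208). The epidermal markers KRT5 and TP63 summed to 5296 and 1991 in the skin of p4 and p6, in the order of KCNK6 there, and their part was not tested.

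KCNK15 and KCNK3, two-pore channel genes of the same family between which reads could be split, differed in liver. KCNK15 was at 24.7 and 16.7 in brain and at 11.1, 22.9 and 17.7 in liver, which overlapped, and at 5.43 or less in the other 9 samples. KCNK3 measured 0.199, 2.93 and 0.175 in liver and 2.22 or less in gut. It was higher in brain (12.5 and 16.1), lung (11.3 to 14.7) and skin (14.7 and 28.0), and split between the hearts of p4 and p6, at 1.67 and 10.2. Neither was called in liver against all other samples. With a separate mean for each organ, KCNK15 was higher in liver by 2.19 ± 0.31 (limma, adjusted p 0.00061) and KCNK3 lower by a log2 fold change of -2.39 ± 0.44 (adjusted p 0.00326).

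**Figure D5:**
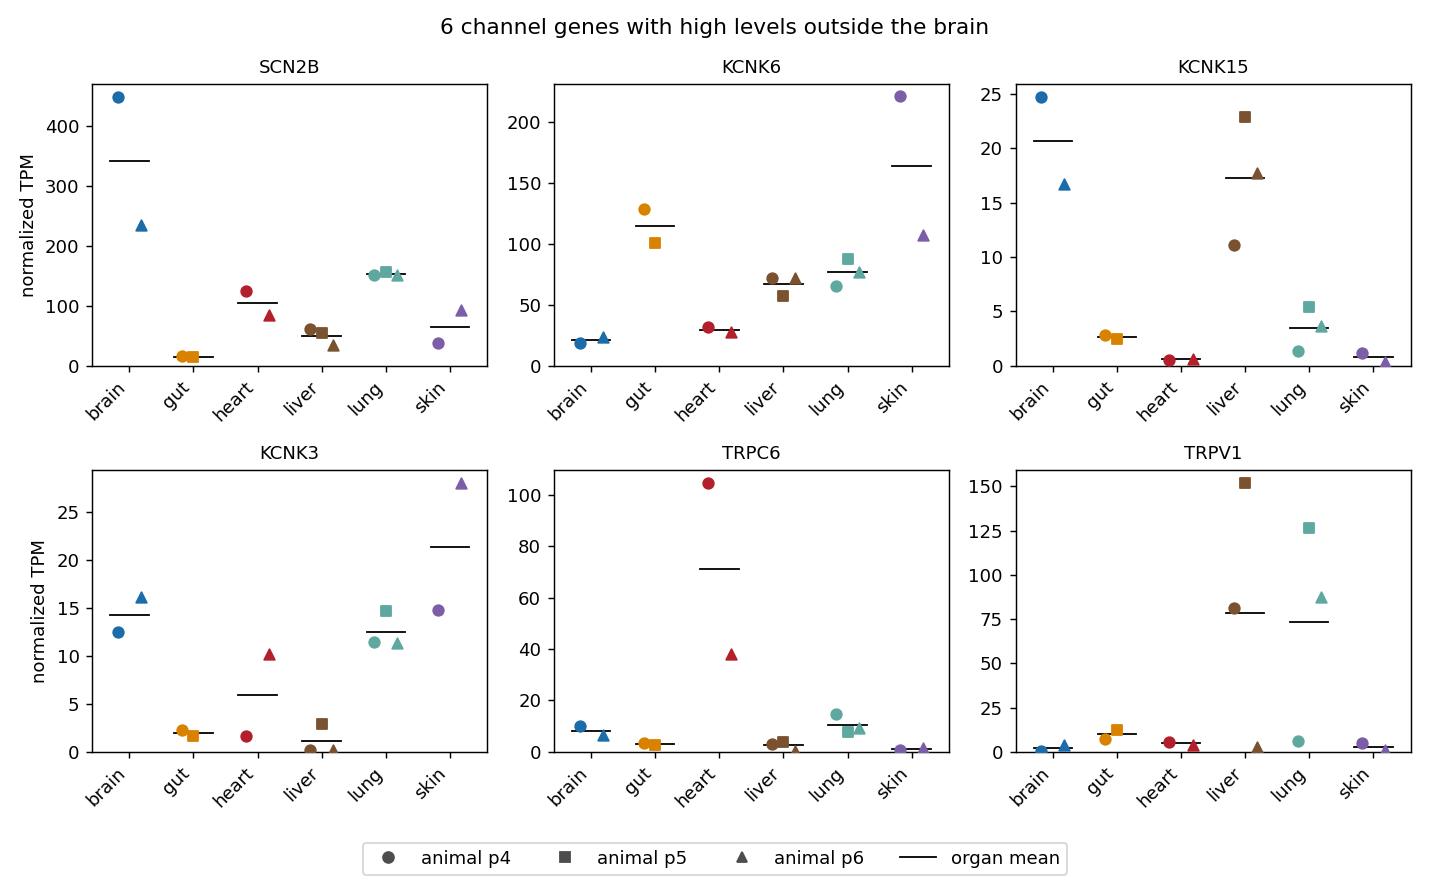
Normalized TPM of 6 channel genes (panels, linear axes from 0) in each sample by organ, with the symbol giving the animal and the line the organ mean. SCN2B is between 151 and 156 in all 3 lung samples, KCNK15 is high in brain and liver, TRPC6 in heart, and TRPV1 in 2 of 3 liver and 2 of 3 lung samples.

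The gut had 1 called channel gene (1.86% of all tested genes were higher in gut) and none was lower (1 at an unadjusted p under 0.05). KCNH6, a relative of KCNH2, was at 12.8 and 5.67 in gut and at 0.654 to 4.14 elsewhere, and was not called in gut (limma, adjusted p 0.193). With a separate mean for each organ, 3 channel genes were higher in gut (5.58% of all genes) and 6 lower (3.97%). KCNH6 (1.36 ± 0.38, limma adjusted p 0.036) and KCNK6 (1.04 ± 0.26, adjusted p 0.0223) were among the higher genes. SCN2B (-2.77 ± 0.33, limma adjusted p 0.000201) was among the lower ones. KCNJ8, an ATP-closed channel pore of vascular smooth muscle in mammals, was at 2.96 and 5.63 in gut, 2.61 to 3.61 in liver, 1.66 to 4.11 in lung and 1.09 and 0.299 in brain. TRPM2, a calcium-permeable channel opened by ADP-ribose, was at 6.52 and 5.74 in gut, 5.81 to 12.1 in lung and 1.04 and 3.41 in brain. KCNH6, KCNJ8, TRPM2 and KCNK6 were among the 5 genes lower in brain than in gut and lung. Of 25 alternatives, these calls were lost in 5 for KCNH6, 4 for KCNJ8, 6 for TRPM2 and 1 for KCNK6. For KCNH6 the sum of all rows of the symbol was among them. In the skin of p4 and p6, TRPM2 was at 10.5 and 7.84, and KCNJ8 was low as in brain, at 0.117 and 0.866.

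No channel gene was called in liver, where 2.29% of all tested genes were higher (limma, with 1 higher and 4 lower at an unadjusted p under 0.05), or in lung, where 0.821% of all tested genes were higher (limma, with 0 of 65 at an unadjusted p under 0.05). With a separate mean for each organ, 1 gene was higher and 9 lower in liver (4.60% and 4.03% of all genes), and 1 higher and 5 lower in lung (2.67% and 3.60%). The higher gene of lung was SCN2B. CACNA1C, CACNB1, CACNG6 and KCNJ11 were lower in both liver and lung than in the mean of the other organs, with levels of 4.73 or less in all 6 samples. CACNA1C, CACNB1 and KCNJ11 were lower in gut as well.

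TRPV1, the heat- and capsaicin-activated channel of sensory neurons in mammals, differed widely between animals within an organ. In liver it was at 81.3 and 152 in p4 and p5 and at 2.97 in p6, and in lung it was at 5.94 in p4 and at 127 and 87.3 in p5 and p6. All other organs were at 12.5 or less, and TRPV1 was not called in liver (log2 fold change 2.05 ± 1.25, limma adjusted p 0.643) or lung (2.33 ± 1.22, adjusted p 0.621). The liver markers summed to 377, 20275 and 15112 in the lung of p4, p5 and p6 and to 193952, 99935 and 93941 in their liver. The leukocyte marker LCP1 was at 27.8, 138 and 113 in those lung samples and at 151, 403 and 205 in liver, and the part of either cell type in the TRPV1 level was not tested. Of the other TRP genes, TRPM7, a channel joined to a kinase, was at 1.58 to 6.13 in all samples, and TRPV6, an epithelial calcium channel, was at 5.72 or less, while a second assembled gene named TRPV6 was at 9.77 and 4.84 in skin and 4.30 or less elsewhere.

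Ion channels and channel partners outside the symbol rule were followed as a list of 66 genes, of which 29 were tested. In brain 9 of the 29 were higher than in all other samples, where 11.2% of all tested genes were, and none was lower, where 3.36% were. This share is in part set by the same filter, since ASIC4 and UNC80 reached a deposited TPM of 1 in brain samples only. The list was also chosen with earlier results of these data known. ASIC4, of the acid-sensing channel family, was at 12.8 and 11.4 in brain and at 0.726 or less elsewhere (log2 fold change 3.26 ± 0.21, limma adjusted p 2.82e-08), and UNC80, a partner of the sodium leak channel, at 24.6 and 8.97 against 0.839 or less. FGF14, an intracellular partner of Nav channels, was at 56.9 and 27.3 in brain and at 1.78 or less elsewhere. Its relative FGF13 was at 123 and 83.0 in brain, and also at 55.2 and 45.4 in heart and 14.2 and 23.3 in skin, against 0.453 or less in gut, liver and lung. The other higher partners in brain were RYR1, RYR3, MCOLN1, ANK2 and DPP6. RYR1, the calcium release channel of skeletal muscle, was at 4.34 and 12.3 in the brain of p4 and p6 and at 2.07 and 8.68 in their skin (limma, adjusted p 0.0499 in brain), and the part of the muscle RNA in this was not tested. Outside the brain, LRRC8E, a subunit of volume-regulated anion channels, was called in lung, at 25.4 to 27.4 against 9.90 or less, and BEST3 and SCNN1G were called in skin.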

How the data were processed

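The authors made poly(A)-selected, directional RNA libraries with molecular identifiers and sequenced them in 1 run. They trimmed reads with Cutadapt and Trimmomatic, used bwa mem for alignment to a Trinity assembly made from animal p4, reduced to its longest transcript per gene, and counted with featureCounts. Symbols came from eggNOG-mapper orthology. The authors deposited TPM, which sum to 1000000 in each sample, and how TPM were derived from counts is not given in the sources used here. Read depth cannot be recovered from TPM, so no counting interval is given. The authors tested organs with DESeq2 on counts, which were not used here.

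TPM were divided by a per-sample factor (the median ratio to the geometric mean over the 13067 genes above 0 in all samples), and log2(value + 1) was tested with limma 3.58.1 (R 4.3.3, trended variance), on the 16317 genes with TPM of at least 1 in 2 or more samples, with Benjamini-Hochberg adjustment. Fold changes on this scale understate the change of low genes. Direct contrasts used a mean for each of the 6 organs. The procedure was tested on simulated data in which genes were raised in brain only. Differences among the other organs were not part of that simulation.

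Named genes were those called in an organ (up to 20 in brain, 10 elsewhere) or in a direct contrast (10 per direction), the 3 highest of each class, the 5 with the largest ratio per organ among genes whose organ did not overlap the rest, and textbook channels. The channel genes, marker, textbook and partner lists were chosen with earlier results of these data known.

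Same-numbered samples come from the same animal by the titles. Deviations from organ means correlated with a median r of 0.160 in the 28 same-animal pairs (range -0.027 to 0.393) and of -0.077 in the 53 pairs of different animals, over genes. In organs with 2 samples both deviations are exact opposites. The pairs are therefore not independent, and the negative median of different animals is in part built in. For the second gut and second heart sample, the study's sample table names another animal than the title, and both assignments were tried as a block. With that table the medians were 0.123 and -0.060. No 2 samples were duplicates (highest correlation 0.976). Some results are not reported here.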

Additional observations from a re-analysis of the deposited data

How the results depend on the processing

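Of the 232 values that 20 counts of channel genes took under alternatives other than leaving out single samples, 188 stayed within 1.5 times the reported count, and none of the 128 calls of single genes changed direction under the alternatives it could be fitted in. The limit of 1.5 times applies to the counts alone and not to the shares of all tested genes. The unscaled values moved the median log2 fold change of all genes by 1.03 in brain, 0.29 in heart, -0.61 in lung, -0.38 in liver and 0.66 to 1.13 in the direct brain contrasts (0.20 for heart against skin), and quantile normalization by -0.17 in brain. In brain the calls of KCNA1, KCNA5, KCNG4, KCNH2, KCNH3, KCNIP2, KCNJ3, KCNJ6, KCNMB2, KCNS2 and TRPC4 were kept in all 26 alternatives.

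Shares of all tested genes stand in parentheses. With a pseudocount of 0.1, the counts were 0 higher in gut (1.36%), heart (0.362%) and skin (1.21%), and 1 lower in liver (0.141%). Lower in brain were 1 against heart (5.08%) and 3 against skin (7.33%). A pseudocount of 5 gave 0 higher in gut (1.81%), and 1 lower in brain than in gut and lung (6.08%). Without scaling, 0 were lower in brain (0.165%), 0 higher in gut (1.33%), 1 higher in skin (1.06%) and 2 lower in brain than in skin (3.10%). Against gut and lung, 46 were then higher and 0 lower in brain, where 51.8% of all tested genes were higher and 1.86% lower. The other counts of genes higher in brain stayed within 1.5 times, but the shares of all tested genes did not. Those shares rose from 11.2% to 40.3% in brain, from 10.4% to 27.6% against heart and from 11.2% to 35.6% against skin. A stable count there is therefore no stable excess over all genes. Quantile normalization gave 0 higher in gut (1.71%). Summing the rows of a symbol gave 1 higher in heart (0.712%) and 1 lower in brain than in heart (5.60%).

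With the animal of the title as a block, the counts were 0 lower in brain (3.51% of all tested genes) and 0 higher in gut (1.37%). They were 1 higher in heart (0.650%), 1 higher in skin (1.81%) and 5 lower in heart than in skin (3.88%). With the animal of the sample table as a block, they were 2 lower in brain (3.44%) and 0 higher in gut (1.52%). There were 0 higher in heart (0.576%), 1 higher in skin (1.64%) and 5 lower in heart than in skin (3.19%). Other counts stayed within 1.5 times under either block, and the block kept 123 (title) and 120 (table) of the 128 calls of single genes.

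Without the p6 brain and p6 heart together, 0 were higher in gut (1.47% of all tested genes) and 6 higher in skin (2.81%), the latter in part through the choice of samples. Brain and heart then rest on 1 sample each, so their counts are not given. With a mean for each organ, 2 were lower in brain (7.64% of all tested genes), and 3 higher and 6 lower in gut (5.58% and 3.97%). In heart 7 were higher and 2 lower (3.49% and 2.30%), and in liver 1 higher and 9 lower (4.60% and 4.03%). In lung 1 was higher and 5 lower (2.67% and 3.60%), and in skin 9 were higher and 6 lower (5.23% and 2.77%).

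Leaving out each sample in turn, between 15 and 25 genes were higher in brain, 13 to 24 against heart, 15 to 27 against skin and 24 to 30 against gut and lung, and 0 to 1, 1 to 5, 1 to 7 and 2 to 6 were lower. The number higher in gut moved beyond the limit in 11 fits, and the number lower in gut in 3. In heart the number higher did so in 6, among them those without either heart sample. In liver the number lower did so in 2. In skin the number higher did so in 3, without either skin sample and without the p6 heart. All other counts, those of heart against skin among them, stayed within the limit. The lowest counts of genes higher in brain came without the p4 brain, except against gut and lung, where the lowest came without the p6 brain. In each of these brain comparisons, the share of all tested genes higher in brain was also lowest without the p4 brain. For gut, heart and skin against all other samples, the share of all tested genes higher was lowest without their own p4 sample. The counts of channel genes are therefore to be read beside these shares. With 2 samples in 4 of the 6 organs, the lone sample left is assumed to vary like the other organs.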

Other observations

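TRPV1 was followed further because its level separated samples within liver and within lung, a choice made after its values were seen. Across the 14 samples, the 3 annotated genes with the most similar log2 levels were SPSB4 (Pearson's r 0.898), ISG15 (r 0.889) and EGFLAM (r 0.885). These values are a description over samples that share organs and animals, and no test was made.

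Of the 18 symbols below the minimum, KCNK13, a two-pore channel, had the highest single value, at 2.34 normalized TPM, and it was the 1 gene added to those higher in brain when no filter was used. HCN2 was listed at 0 in all samples, and KCNE1, the accessory subunit of KCNQ1, did not exceed 0.874.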
